A study of Mus musculus with 2 samples.

Results

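A set of 9 genes of the glucocorticoid response was followed in lung endothelial cells of the mouse, from 31053 genes listed. They are Zbtb16, Fam107a, Fkbp5, Tsc22d3, Klf9, Klf15, Sgk1 and Map3k6, which are known glucocorticoid-responsive genes, and Nr3c1, which encodes the glucocorticoid receptor. The 9 genes were picked by name after the ratios between the libraries below and the correlations between genes had been seen, so their ratios and correlations are given as a description, with no test. Levels were read as unique molecular identifiers (UMIs, one per captured transcript copy) in cells for which 1000 to 5000 genes were found and mitochondrial UMIs made up less than 20%, within endothelial classes set by marker genes.

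Endothelial cells were sorted for surface PECAM1 (CD31) from lungs of wild-type C57BL/6 mice, which the methods give as males of 8 to 10 weeks. One library held control cells, taken 6 h after phosphate-buffered saline was given into the tail vein. The other, called metastatic, held cells taken 6 h after 200000 B16-F10 cells, a mouse skin melanoma line, were given by the same route. Each library pooled 2 mice, and no record ties a cell to a mouse. With 1 library per group, no difference between control and metastatic cells has a replicate check, no test between them was run, and all intervals below are 95% intervals that cover counting error only.

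Glucocorticoids enter the cell and bind the receptor NR3C1, which an HSP90 complex holds in the cytoplasm. The bound receptor moves to the nucleus, binds DNA as a dimer at palindromic response elements, and raises transcription of genes such as Fkbp5, Tsc22d3 and Zbtb16, while it lowers that of many inflammatory genes. FKBP5 in turn lowers the receptor's affinity for hormone. Endothelial cells carry the receptor, and adrenal glucocorticoids rise with stress and with the time of day.

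The libraries held 67929614 (control) and 64733724 (metastatic) UMIs, and 7134 and 6466 barcodes passed the limits. Pecam1 was detected in 96.4% and 95.5% of the kept barcodes and Cdh5, the endothelial cadherin, in 96.6% and 95.9%. General capillary cells, the class with at least 2 of Gpihbp1, Aplnr, Kit and Lpl, made up 5020 and 4519 barcodes, at medians of 5950.5 and 6275 UMIs. There were 1364 and 1086 aerocytes (the capillary cells of gas exchange, by Ednrb, Fibin and Tbx2), 247 and 304 vein cells (Slc6a2, Car8, Bst1) and 63 and 59 artery cells (Gja5, Bmx, Fbln5). Genes of other cell types were also read in general capillary cells. From the control to the metastatic library, the summed level of 4 epithelial markers was 1616 and 952 CPM (UMIs of a gene scaled to 1000000 UMIs), of 5 erythroid markers 1959 and 824 CPM, of 5 myeloid markers 356 and 238 CPM and of 4 platelet markers 175 and 271 CPM, with each marker of these lists detected in both libraries. Without barcodes that carried such markers the 7 genes found lower in the metastatic library below had more negative log2 ratios, −1.38 for Zbtb16. The libraries shared 16 kept barcodes.

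The sequences that hold the receptor's element near a start site are shown first. The promoter windows of RefSeq (GRCm38.p6, 250 bases before to 50 after an annotated start) were searched on both strands for GNACANNNTGTNC, a loose form of the glucocorticoid response element. It was present in 0.475% of 32851 windows. Counted by gene, 0.537% of 27025 genes had a match in a window. So did 3 of the 7 members that had a window, Sgk1, Map3k6 and Fam107a. The stricter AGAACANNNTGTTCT was in 0.00913% of windows, among them the same Sgk1 window, where both overlap. The windows are chr10:21993640-21993939 (plus strand) for Sgk1, 1 of its 6 windows, with the match 188 to 176 bases before the start. For Map3k6 the window is chr4:133240568-133240867 (plus strand), with the match 181 to 169 bases before the start. For Fam107a it is chr14:8309730-8310029 (minus strand), with the match 118 to 106 bases before the start, and of its 3 windows another that starts 2 bases away holds the same match. They are printed 5′ to 3′ on the gene's strand, with the match in capitals.
Sgk1: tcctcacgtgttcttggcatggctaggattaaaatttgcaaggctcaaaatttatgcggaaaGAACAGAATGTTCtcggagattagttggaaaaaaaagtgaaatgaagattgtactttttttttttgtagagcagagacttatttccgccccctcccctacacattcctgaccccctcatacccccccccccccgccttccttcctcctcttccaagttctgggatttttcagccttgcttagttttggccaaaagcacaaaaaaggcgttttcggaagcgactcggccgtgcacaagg
Map3k6: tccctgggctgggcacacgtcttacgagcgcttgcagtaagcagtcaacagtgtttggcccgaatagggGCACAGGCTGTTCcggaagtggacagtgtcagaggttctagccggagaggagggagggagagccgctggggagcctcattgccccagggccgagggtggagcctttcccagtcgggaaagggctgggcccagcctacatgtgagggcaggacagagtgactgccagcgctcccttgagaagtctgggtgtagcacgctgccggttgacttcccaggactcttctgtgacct
Fam107a: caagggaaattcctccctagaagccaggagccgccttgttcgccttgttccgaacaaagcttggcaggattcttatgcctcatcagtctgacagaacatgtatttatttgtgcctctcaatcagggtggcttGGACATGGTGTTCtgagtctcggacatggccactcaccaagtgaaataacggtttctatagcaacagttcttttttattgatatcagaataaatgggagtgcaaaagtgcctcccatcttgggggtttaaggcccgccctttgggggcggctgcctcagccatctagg
The windows of Fkbp5, Klf9, Klf15 and Tsc22d3 held no such match, which says only that these letters are not in these windows. Windows of Zbtb16 and Nr3c1 were not used here. A match is a description and not a bound site, and 3′-end counting does not tell which start a transcript used.

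Zbtb16, which encodes the zinc-finger repressor PLZF and lies at chr9:48654297-48836222 (GRCm38, minus strand), stood at 488 CPM (480.3 to 496) in control general capillary cells and 199.6 CPM (195 to 205) in metastatic ones. The intervals lie far apart, and the metastatic level was 2.44-fold lower (log2 ratio −1.29, −1.33 to −1.25). In aerocytes it was 372 and 156 CPM (log2 −1.25, −1.34 to −1.17). In vein cells it was 336 and 126 CPM (log2 −1.42, −1.61 to −1.23), the lowest ratio of the 4130 genes tested there. In artery cells it was 343 and 160.4 CPM, from 169 and 78 UMIs (log2 −1.10, −1.50 to −0.70). The gene was thus lower in the metastatic library in every endothelial class.

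Fam107a, an actin-associated protein induced by glucocorticoids and stress (chr14:8296274-8318023, minus strand), was at 115 CPM in control and 53.3 CPM in metastatic general capillary cells (log2 −1.11, −1.20 to −1.03). Fkbp5, the HSP90 co-chaperone that restrains the receptor (chr17:28399094-28517527, minus strand), was at 116 and 60.3 CPM (log2 −0.94, −1.03 to −0.86). Tsc22d3, which encodes the anti-inflammatory protein GILZ (chrX:140539528-140600659, minus strand), was at 303 and 183 CPM (log2 −0.73, −0.77 to −0.68). All 3 were lower in the metastatic library by more than counting error.

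The Krüppel-like transcription factors were lower too. Klf9 (chr19:23141226-23168134, plus strand) was at 1028 CPM in control and 632 CPM in metastatic general capillary cells (log2 −0.70, −0.73 to −0.68), and Klf15 (chr6:90462576-90475238, plus strand) at 31.4 and 17.2 CPM (log2 −0.87, −1.03 to −0.72). Of the 2 kinases, Map3k6 (chr4:133240818-133252929, plus strand), a stress-kinase activator, was at 51.9 and 26.8 CPM (log2 −0.95, −1.07 to −0.83). Sgk1, the serum- and glucocorticoid-regulated kinase (chr10:21882184-21999903, plus strand), was at 284 and 325 CPM and so higher in the metastatic library (log2 0.19, 0.15 to 0.23). Nr3c1 itself (chr18:39410545-39519421, minus strand) was at 235 and 244 CPM (log2 0.06, 0.01 to 0.10), a difference with an interval that barely left 0.

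**Figure D1:**
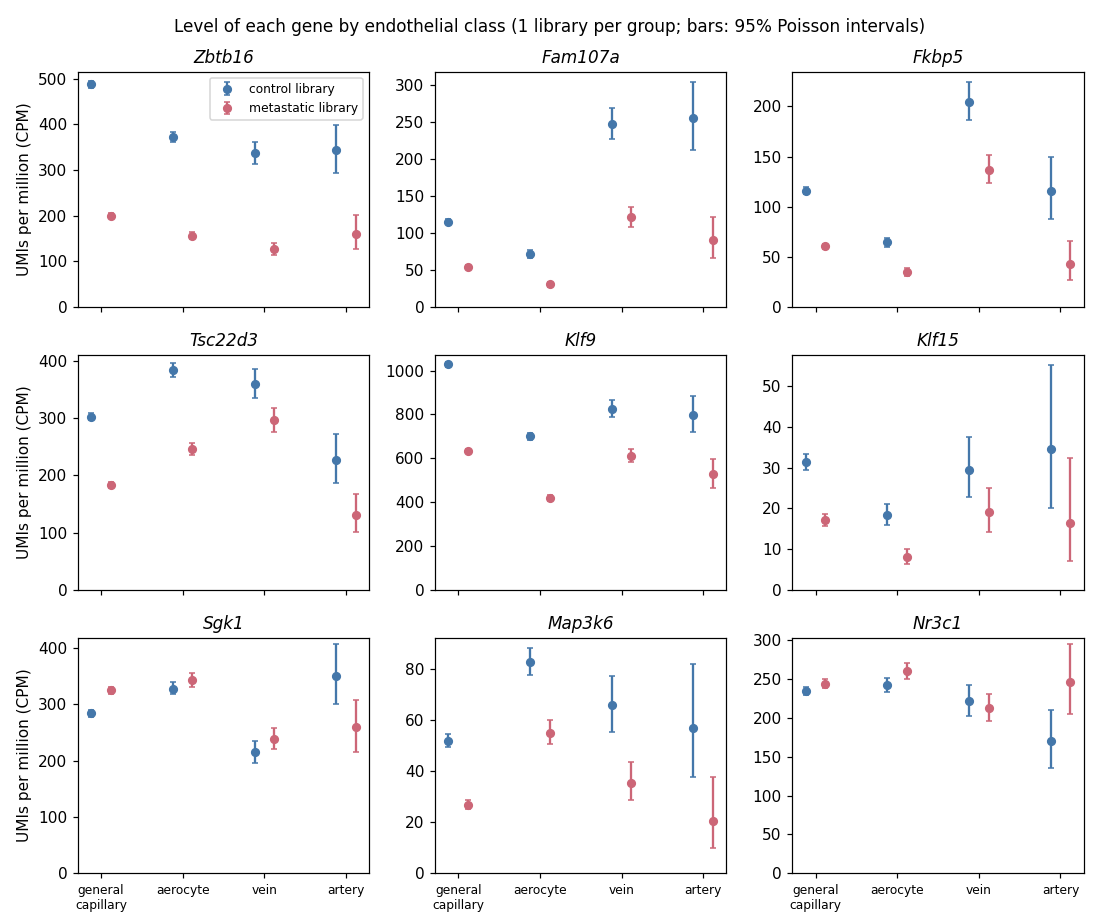
Level of each of the 9 genes in CPM (linear axis) in the control and metastatic libraries, by endothelial class, with exact Poisson 95% intervals. In general capillary cells 7 genes lie lower in the metastatic library, Zbtb16 at 199.6 against 488 CPM, while Sgk1 lies at 325 against 284 and Nr3c1 at 244 against 235 CPM.

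In general capillary cells 7 of the 9 genes were at least 1.5-fold lower in the metastatic library, where 1.36% of the 10222 genes tested (at least 200 UMIs over both libraries) were, and 0 were 1.5-fold higher, against 2.52% of the genes tested. The median log2 ratio of the 9 was −0.87, against 0.02 over all genes tested. Ordered from the lowest ratio, Zbtb16 stood at place 7 of 10222, Fam107a at 18, Map3k6 at 25, Fkbp5 at 27, Klf15 at 35, Tsc22d3 at 76 and Klf9 at 86. Since the genes were chosen on these ratios, nothing is read from the counts.

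In aerocytes the same number, 7 of 9, were 1.5-fold lower (0.969% of 8252 genes tested) and 0 higher (1.73%), with a median of −0.74 against 0.02. Fam107a was at 71.5 and 30.5 CPM, Klf9 at 699.9 and 419 CPM, and Map3k6 at 82.7 and 55.1 CPM. In vein cells 4 of 9 were 1.5-fold lower (1.77% of 4130; 8 of the 9 genes were among those tested) and 0 higher (2.23%), with a median of −0.58 against 0.00. In artery cells 7 of 9 were lower by 1.5-fold (3.46% of 781; 4 of the 9 among those tested) and 0 higher (2.43%), with a median of −1.07 against −0.03. These counts cover all 9 genes, while the shares cover only genes tested. In vein cells the lower genes include Klf15, which was not among those tested. Of the 4 tested in artery cells, Zbtb16 and Klf9 were 1.5-fold lower, and Sgk1 (log2 −0.44) and Nr3c1 (0.53) were not. Counts in artery cells were low, with 17 and 8 UMIs of Klf15 and 28 and 10 of Map3k6. The artery median is the ratio of Klf15 itself, with an interval of −2.49 to 0.22.

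Some ratios differed between classes by more than counting error. Tsc22d3 was at 360 and 297 CPM in vein cells, and its ratio there was higher than in general capillary cells by 0.45 (0.30 to 0.60) on the log2 scale. Klf9 in vein cells, at 826 and 611 CPM, differed by 0.27 (0.17 to 0.37), and Fkbp5, at 205 and 137 CPM, by 0.36 (0.15 to 0.58). These 3 genes were thus less far apart between the libraries in vein cells than in general capillary cells. The Map3k6 ratio of aerocytes was 0.37 (0.17 to 0.56) higher. Nr3c1 in artery cells was at 170.4 and 247 CPM (log2 0.53, 0.12 to 0.95), a ratio higher than in general capillary cells by 0.48 (0.07 to 0.88). Zbtb16 and Fam107a had ratios in aerocytes and vein cells whose intervals overlapped those in general capillary cells.

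**Figure D2:**
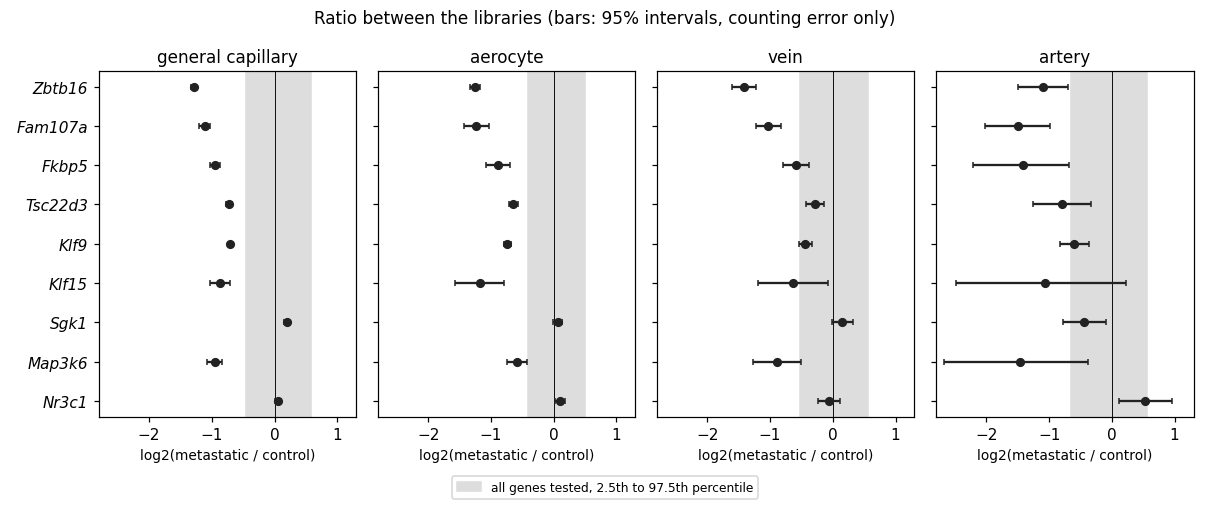
Log2 ratio of metastatic over control for each of the 9 genes by endothelial class, with exact 95% counting intervals and a line at 0. Zbtb16 lies between −1.42 and −1.10 in all 4 classes, while Sgk1 lies at 0.19 in general capillary cells and −0.44 in artery cells.

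The genes also differed between classes within a library. In control cells Zbtb16 and Klf9 were highest in general capillary cells, and Zbtb16 of aerocytes, artery and vein followed, with overlapping intervals between aerocyte and artery and between artery and vein. Fam107a was highest in artery and vein cells, at 256 and 247 CPM with overlapping intervals, and lowest in aerocytes. Fkbp5 was highest in vein cells and Map3k6 in aerocytes. Klf15 was lowest in aerocytes, at 18.4 CPM. The intervals of Nr3c1 overlapped between each pair of neighbours in the order aerocyte, general capillary, vein and artery. In the metastatic library Fkbp5 kept the order vein, general capillary, artery, aerocyte, with overlapping intervals between general capillary and artery and between artery and aerocyte, and Map3k6 remained highest in aerocytes.

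Among other cells in the libraries, lymphoid barcodes (43 and 39) held 653 and 610 CPM of Tsc22d3 (log2 −0.10, −0.45 to 0.25), a gene also used by lymphocytes. They held 1 UMI of Zbtb16 in each library. Myeloid barcodes (42 and 42) held Klf9 at 132 and 67.7 CPM (log2 −0.96, −1.62 to −0.32). Klf9 rested on 54 and 35 UMIs there and was not among the genes tested. Sgk1 was at 584 and 724 CPM in these barcodes (log2 0.31, 0.07 to 0.55). The intervals of the other 7 genes held 0 there, among them that of Zbtb16 (log2 −0.46, −1.79 to 0.84). In barcodes of free RNA, which hold few UMIs, Zbtb16 had 9 and 6 UMIs of 76646 and 52468 (117 and 114 CPM). Klf9 had 16 and 12 (209 and 229 CPM, above its values in myeloid barcodes), and Tsc22d3 12 and 9 (157 and 172 CPM). In metastatic general capillary cells Zbtb16 was at 199.6 CPM and Tsc22d3 at 183 CPM. The part of free RNA in the myeloid counts was not tested.

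The share of cells in which a gene was found was compared after each cell was thinned to 2000 UMIs, which left 4947 control and 4461 metastatic general capillary cells. A UMI of Zbtb16 was found in 60.2% of control cells (58.8 to 61.5, exact Clopper-Pearson) and in 25.8% of metastatic cells (24.6 to 27.2), against 87.5% and 40.1% unthinned. The cells that held the gene held a mean of 1.63 and 1.64 UMIs, so positive cells carried the same number in both libraries while fewer cells were positive. In lymphoid cells, at median depths of 4704 and 4675 UMIs before thinning, Zbtb16 was found in 0 of 43 cells, which allows a share of up to 6.98% by a limit of 3 counts (8.22% by the exact interval), and in 2.63% of 38. Among aerocytes the shares were 51.6% and 22.5%.

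Klf9 was found in 82.2% of control and 61.8% of metastatic general capillary cells, and in 2.33% and 5.26% of lymphoid cells. Tsc22d3 was found in 42.8% and 26.9%, below its shares of 72.1% and 71.1% in lymphoid cells, which express it. Fam107a went from 18.4% to 9.55%, Fkbp5 from 19.4% to 10.8%, Map3k6 from 9.97% to 5.38% and Klf15 from 5.96% to 3.32%. Sgk1 was found in 35.3% and 39.4%, and Nr3c1 in 36.3% and 37.0% (23.3% and 23.7% in lymphoid cells). In lymphoid cells Fam107a was found in 0 of 43 and 2.63% of 38, Fkbp5 in 9.30% and 7.89%, and Sgk1 in 2.33% and 7.89%, and whether these are free RNA or the lymphoid cells' own transcripts was not tested. Map3k6 was in 0 of 43 and 0 of 38 lymphoid cells, which allow up to 6.98% and 7.89% by the same limit of 3 counts, and Klf15 in 2.33% and 0 of 38, so the shares of these low genes in metastatic cells lay within what that background allows. Counting the 9 genes per cell, the median number found was 3 in control and 2 in metastatic general capillary cells. None of the 9 was found in 1.62% of control and 8.83% of metastatic cells, and in aerocytes in 2.58% and 9.59%.

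The spread between cells was read on the same thinned counts. The variance of Zbtb16 UMIs over the mean, which is 1 for pure counting noise, was 1.12 in control and 1.71 in metastatic general capillary cells, and that of Sgk1 was 1.66 and 1.71. It was lower in the metastatic library, among others, for Klf15 in general capillary cells (1.02 and 0.99), for Fkbp5 (1.20 and 1.13), Tsc22d3 (1.26 and 1.23) and Sgk1 (1.37 and 1.26) in aerocytes, and for Klf9 in vein cells (1.84 and 1.59). The sum of the 7 lower genes, grouped after their values were seen, had a mean of 4.27 UMIs per control cell and 2.44 per metastatic cell, with a variance over mean of 1.45 and 2.62. It was 0 in 3.54% of control and 25.6% of metastatic cells, where counting noise at those means alone would give 1.39% and 8.70%. In aerocytes the variance over mean of the sum was 1.29 and 2.15. Metastatic cells thus ranged from none of the 7 genes to the sums seen in control cells.

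**Figure D3:**
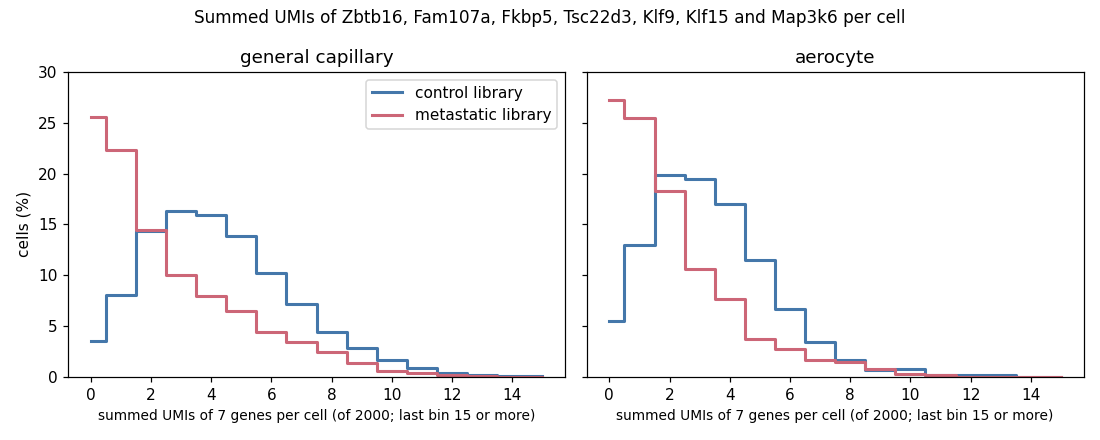
Share of general capillary cells (left) and aerocytes (right), in %, by the summed UMIs of the 7 lower genes per cell after thinning to 2000 UMIs, for each library. The metastatic library has 25.6% of its general capillary cells and 27.2% of its aerocytes at 0, against 3.54% and 5.47% in the control library, and its other cells spread over the sums of control cells.

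Within a library, the genes were compared over cells by Pearson's r of log(1 + UMIs per 10000). Cells of a library share its depth and preparation, and the values are descriptions. Over the 5020 control general capillary cells the 36 pairs had a median r of 0.05 and ranged from −0.03 to 0.17, the highest being Zbtb16 with Klf9. At these sparse counts such weak values are no finding. Over the 4519 metastatic cells the median was 0.18 and the range −0.18 to 0.49. With each cell thinned to 2000 UMIs the medians were 0.014 and 0.060.

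In the metastatic cells Zbtb16 had r = 0.49 with Klf9 (0.17 in control), 0.44 with Fkbp5 (0.08), 0.43 with Tsc22d3 (0.05), 0.42 with Fam107a (0.09), 0.30 with Klf15 (0.07) and 0.27 with Map3k6 (0.01). It had r = −0.18 with Sgk1 (0.02 in control) and −0.02 with Nr3c1 (0.07). The 6 genes that were lower beside Zbtb16 thus tended to be found in the cells that held it, and Sgk1 and Nr3c1 did not. The r of Zbtb16 with the log of a cell's UMIs was 0.18 in control and 0.00 in metastatic cells. In aerocytes the median over the pairs was 0.04 (n = 1364) and 0.08 (n = 1086), with Zbtb16 and Fkbp5 at 0.44 in the metastatic library.

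**Figure D4:**
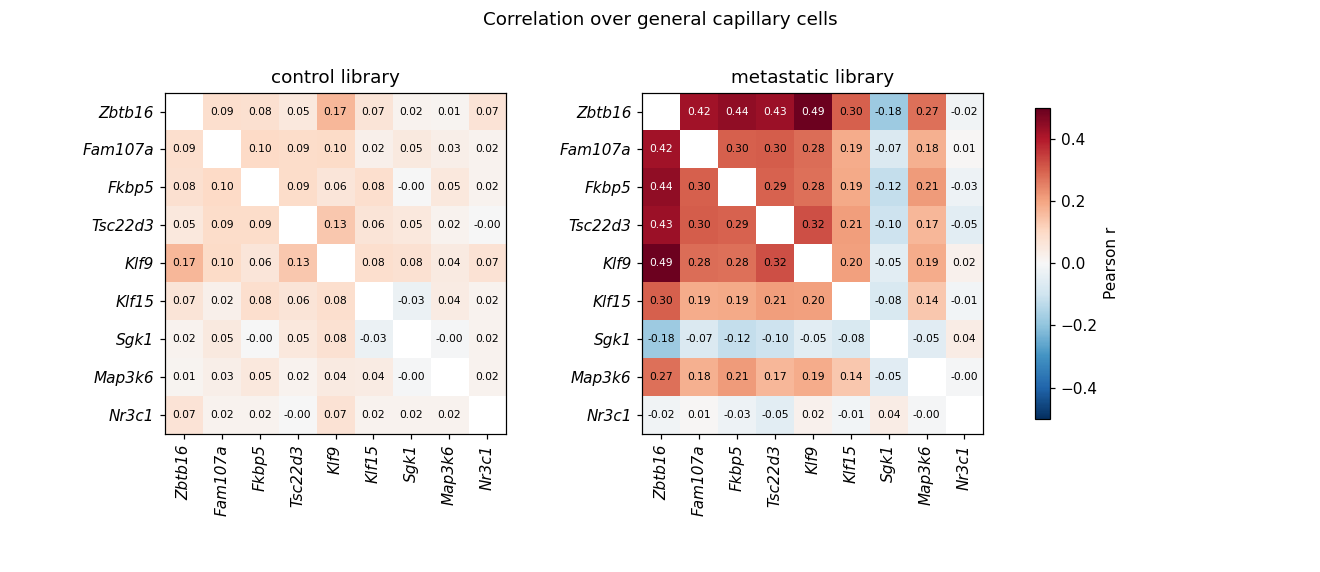
Pearson's r between each pair of the 9 genes over general capillary cells of the control (5020 cells) and metastatic (4519 cells) libraries, as coloured cells. The pairs lie between −0.03 and 0.17 in the control library, and Zbtb16 with Klf9 reaches 0.49 in the metastatic library.

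The genes most like each member over control general capillary cells, among genes of at least 50 CPM, had low r. For Zbtb16 they were Malat1 (0.23), a nuclear noncoding RNA, Cd93 (0.22) and Bmpr2 (0.20), both endothelial surface receptors. For Klf9 they were Cdkn1a (0.29), a cell-cycle inhibitor, Cd93 and Jun. For Sgk1 they were Sema3c (0.27), Sox17 (0.21) and Slc6a6 (0.19), which were also its nearest genes in the metastatic library, at 0.30, 0.27 and 0.26. By the same measure in metastatic cells, Zbtb16 was nearest to Stt3b (0.58, against 0.14 in control), a subunit of the oligosaccharyltransferase, Epb41 (0.55) and Ucp2 (0.53), a mitochondrial carrier. Zbtb16 was itself the nearest gene of Fam107a, Fkbp5, Tsc22d3, Klf9, Klf15 and Map3k6 there.

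The cells were then divided by whether a Zbtb16 UMI remained after thinning, and the other 8 genes were compared between libraries. The division was chosen after these correlations were seen and uses the gene with the lowest ratio, so its values show in CPM what the correlations show and are no further support for them. Among general capillary cells 2976 control and 1153 metastatic cells carried Zbtb16, and 1971 and 3308 did not. In cells carrying it, Fam107a was at 118 CPM (113 to 123) in control and 126 CPM (118 to 134) in metastatic cells (log2 0.09, −0.02 to 0.20). Klf9 was at 1061 and 1035 CPM (log2 −0.04, −0.07 to 0.00), Tsc22d3 at 311 and 336 CPM, Fkbp5 at 121 and 136 CPM and Map3k6 at 52.0 and 53.8 CPM. None of these 5 was lower by more than 0.04 on the log2 scale, and Klf15 was at 33.7 and 40.7 CPM.

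In cells without a Zbtb16 UMI, Fam107a was at 111 CPM (105 to 117) in control and 29.4 CPM (27.2 to 31.7) in metastatic cells (log2 −1.92, −2.05 to −1.78). Fkbp5 was at 109 and 35.0 CPM (log2 −1.64, −1.77 to −1.52), and Klf9 at 981 and 499 CPM (log2 −0.98, −1.01 to −0.94). Klf15, Map3k6 and Tsc22d3 had log2 ratios of −1.60, −1.54 and −1.13. Of the 8 genes, 6 were 1.5-fold lower in these cells (2.7% of 9319 genes tested) and 0 higher (3.37%), whereas in cells carrying Zbtb16 0 were lower (0.334% of 8685) and 0 higher (0.438%). The median log2 ratio of the 6 was 0.10 in cells carrying Zbtb16 and −1.57 in cells without it. The first value turned to −0.32 when cells were divided by Stt3b in place of Zbtb16, with −1.39 in cells without Stt3b, and the second ranged from −1.24 to −2.00 with thinning to 1000 or 4000 UMIs. Within the control library the same division left Fam107a at 118 and 111 CPM, Klf9 at 1061 and 981 CPM and Klf15 at 33.7 and 28.2 CPM.

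The same division was read for 4 other genes, Stt3b, Epb41, Ucp2 and Cdkn1a. In general capillary cells with 0 Zbtb16 UMIs the log2 ratio was −1.29 for Stt3b, −1.21 for Epb41, −0.92 for Ucp2 and −0.82 for Cdkn1a. In cells with 1 UMI it was −0.01, 0.07, 0.04 and −0.00. With 2 or more UMIs it was 0.24, 0.34, 0.23 and 0.10, each with an interval above 0. These 4 genes were named after their values were seen, and Cdkn1a is also on the list of other glucocorticoid response genes read below. Stt3b, Epb41 and Ucp2 were the nearest genes of Zbtb16 over these metastatic cells, and Cdkn1a had r = 0.46 with it. A division by Zbtb16 was thus bound to part them. Whether the pattern is particular to glucocorticoid genes cannot be read from them.

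Sgk1 was at 281 and 222 CPM in cells carrying Zbtb16 (log2 −0.34, −0.42 to −0.26) and at 290.2 and 359 CPM in cells without it (log2 0.31, 0.25 to 0.36). Nr3c1 was at 241 and 229.8 CPM with Zbtb16 and at 226 and 249 CPM without it.

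Among aerocytes there were 699 and 242 cells carrying Zbtb16 and 655 and 832 without it. The median log2 ratio of the 6 genes was 0.01 with Zbtb16 and −1.30 without it, and under the 4 alternatives the first value was lower, from −0.29 to −0.09. Fam107a without Zbtb16 was at 72.5 and 18.7 CPM (log2 −1.96, −2.25 to −1.67), and with it Klf9 was at 735 and 666 CPM (log2 −0.14, −0.23 to −0.06) and Tsc22d3 at 378 and 334 CPM (log2 −0.18, −0.30 to −0.06). Of the 8 genes, 6 were 1.5-fold lower without Zbtb16 (1.9% of 7105) and 0 higher (2.74%), and 0 with it (0.4% of 5756) and 0 higher (0.295%). Klf15 was under the 200-UMI minimum in both. In vein cells without a Zbtb16 UMI (132 and 253) Fam107a had a log2 ratio of −1.42, and in the 75 and 37 vein cells with 1 UMI it was 0.34 (−0.04 to 0.72).

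**Figure D5:**
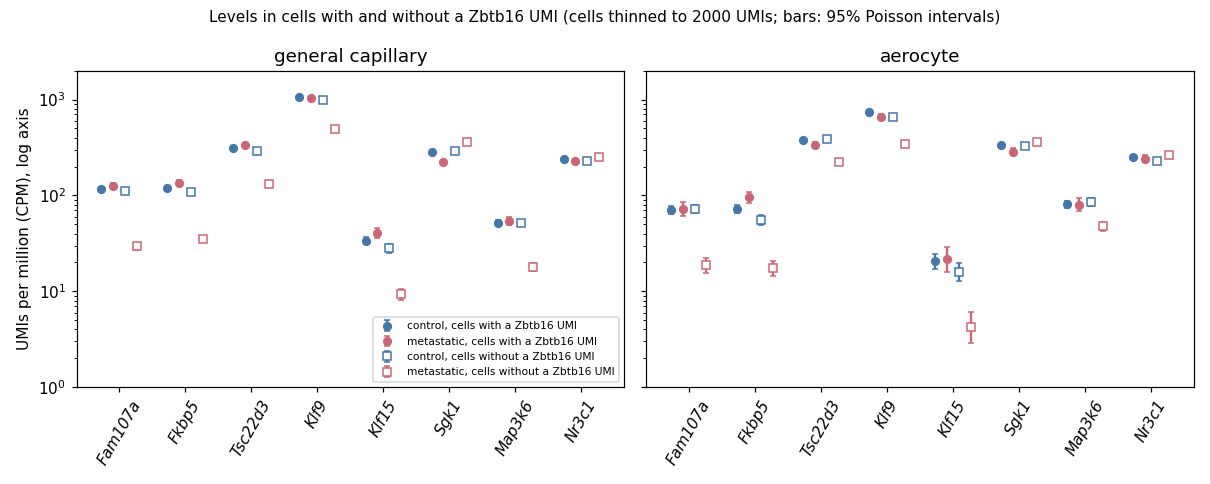
Level in CPM (log axis) of the other 8 genes in each library, in general capillary cells and aerocytes. Cells with and without a Zbtb16 UMI after thinning are shown apart, with exact Poisson 95% intervals. In general capillary cells with Zbtb16, Fam107a lies at 118 CPM in control and 126 CPM in metastatic cells. Without Zbtb16 it lies at 111 and 29.4 CPM. Sgk1 lies at 281 and 222 CPM with Zbtb16 and at 290.2 and 359 CPM without it.

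Since 2 mice were pooled, a difference between the mice of the metastatic library and a difference among the cells of 1 mouse cannot be told apart. The metastatic cells with and without Zbtb16 had medians of 6052 and 6401.5 UMIs and 2.79% and 2.74% mitochondrial UMIs. Of 8 genes known to respond to tissue dissociation, the median ratio was −0.24 with Zbtb16 and 0.15 without it. With Zbtb16 0 of them were 1.5-fold higher (0.438% of all genes tested), and without it 3 were (3.37%). In aerocytes the medians were −0.35 (2 lower, against 0.4%) and 0.33 (3 higher, against 2.74%). The part of these 8 genes in the division was not tested. The metastatic cells with Zbtb16 had higher summed general capillary markers (4002 CPM, against 2884 CPM without) and lower epithelial markers (157 against 1218 CPM) and myeloid markers (77.6 against 291 CPM). Platelet markers were at 166 against 304 CPM and erythroid markers at 1035 against 752 CPM. Epithelial markers were also lower with Zbtb16 in control cells, at 1120.0 against 2378 CPM. The part of RNA from other cell types in the division was not tested. Without barcodes that carried markers of other cell types or several classes, the median ratio of the 6 genes was 0.09 in cells with Zbtb16 and −1.76 in cells without it.

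Other genes known to respond to glucocorticoids were also read in each class. Of 23 listed, 21 had at least 100 UMIs in general capillary cells, with a median log2 ratio of −0.07, 3 of them 1.5-fold lower and 3 higher (1.36% and 2.52% of all genes tested). The median was −0.32 in aerocytes (7 of 18 lower and 1 higher, against 0.969% and 1.73%), −0.18 in vein cells (3 of 14 lower and 2 higher, against 1.77% and 2.23%) and −0.60 in artery cells (6 of 10 lower and 0 higher, against 3.46% and 2.43%). For this and the other gene lists a gene needed at least 100 UMIs, whereas the genes tested had at least 200. The counts and shares are therefore not strictly like for like, least of all in vein and artery cells, where counts were low. The lower ones in general capillary cells were Per1, a clock gene induced by the receptor, at 63.5 and 34.0 CPM (log2 −0.90), Glul (−0.64), the glutamine synthetase, and Txnip (−0.63), a thioredoxin inhibitor, with Glul and Txnip named after their values were seen. The higher ones were the metallothioneins Mt2 (2.45) and Mt1 (1.59), which metals and inflammation also induce, and Lcn2 (0.89), an acute-phase protein. In cells carrying Zbtb16, Per1 had a ratio of 0.01, and in cells without it −1.38. Mt2 was higher in the metastatic library in both, at 1.65 and 2.71.

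The median ratio between the libraries over the receptor's own machinery stood close to that of all genes. The 15 genes listed were chaperones, co-chaperones and cofactors, and also Nr3c2, Hsd11b1, Hsd11b2 and Abcb1a. Of these, 14 were measured, with a median of 0.05 and 0 past 1.5-fold (1.36% lower and 2.52% higher among all genes tested). The highest were Hsp90aa1 (0.33), Hsp90ab1 (0.26), Stip1 (0.23) and Hspa8 (0.20), all of the chaperone cycle that loads hormone. Over metastatic general capillary cells Zbtb16 had r = −0.28 with the summed UMIs of this list, against −0.003 in control cells. For the other lower members r ran from −0.18 (Klf9) to −0.08 (Map3k6) in metastatic cells. It was 0.04 for Sgk1 and 0.01 for Nr3c1. What lies behind these values was not tested.

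Inflammatory genes are known to be lowered by glucocorticoids. Of 12 listed, 9 had at least 100 UMIs, with a median log2 ratio of 0.87, and 6 were 1.5-fold higher (2.52% of all genes tested). In aerocytes the median was 0.56 (3 of 8 higher, against 1.73%), in vein cells 0.22 (2 of 6 higher, against 2.23%) and in artery cells 0.36 (1 of 3 higher, against 2.43%). Sele, the E-selectin that binds leukocytes, had 12 and 268 UMIs (log2 4.56, 3.74 to 5.54). Cxcl10 (1.38), a chemokine, Nfkb2 (1.08), an NF-kB subunit, and Tnfaip3 (0.93), its inhibitor, followed. Their median was 0.41 in cells carrying Zbtb16 (8 genes, 1 of them higher, against 0.438% of all genes) and 0.90 in cells without it (9 genes, 6 higher, against 3.37%). Icam1, named after its values were seen, was at 0.16 with Zbtb16 and 0.68 without it.

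Clock output genes were listed because glucocorticoids follow the time of day. Of 9 genes that peak with Dbp, 8 were measured, with a median of −0.43. Of these, 1 was past 1.5-fold, Per2 (−0.78), where 1.36% of all genes tested were lower. Of 5 genes that peak with Bmal1, 4 were measured, with a median of −0.04. Of 8 genes known to respond to tissue dissociation, the median was 0.06, and the heat-shock genes Hspa1b (1.05) and Hspa1a (0.91), near-identical copies whose counts are uncertain, were higher. The time of day at which the mice were killed was not given in the sources used here.

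The study named 7 genes of a reactive capillary state, a list chosen on data that included these samples and therefore not independent evidence. Their median log2 ratio was 0.37 in general capillary cells, where the intervals of all 7 lay above 0. The share of all genes tested with such an interval was not counted. Of the 7, 2 were 1.5-fold higher (2.52% of all genes tested), Inhbb (2.64), a subunit of activin and inhibin, and Bcl3 (1.44), an NF-kB cofactor. The median was 0.34 over 7 genes in aerocytes (2 of them 1.5-fold higher and 0 lower, against 1.73% and 0.969%). It was −0.28 over 6 genes in vein cells (1 higher and 1 lower, against 2.23% and 1.77%). In artery cells it was −0.52 over only 3 genes (0 higher and 1 lower, against 2.43% and 3.46%). With so few genes and low counts, nothing is read from the vein and artery medians. Inhbb was at 1.61 in cells carrying Zbtb16 and 3.09 in cells without it, and Bcl3 at 0.56 and 1.47. Within metastatic general capillary cells, those with 2 or more Zbtb16 UMIs had Inhbb lower than those with 0 by log2 −1.52, and Sgk1 lower by −0.75, while Fam107a was higher by 2.25 and Klf9 by 1.15. The same comparison in control cells gave 0.19 for Fam107a, 0.15 for Klf9 and 0.00 for Sgk1.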

How the data were processed

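Single cells were profiled with a 10x 3′ kit, which counts transcript ends. The authors aligned reads to mm10 with Cell Ranger (3.1.0 in the matrix header) and deposited raw UMI counts per gene and barcode, which were used as counts. The labels name no gate against leukocytes. Barcodes with 1000 to 5000 genes and under 20% mitochondrial UMIs were kept, the upper limit serving against doublets, and no doublet caller was run. Cells were classed by 2 or more markers, and general capillary cells had none of the other classes. Counts were summed per library and class and given as CPM with exact Poisson intervals, and ratios with exact conditional binomial intervals. The calculation was tested on simulated data. Shares used cells thinned to 2000 UMIs. Members, lists and the division by Zbtb16 were chosen with earlier results of these data known. Named genes were all members, up to 4 genes of each list with the largest absolute ratio, the 3 nearest genes by correlation, and genes stated as chosen later. Python 3.11.15, numpy 2.4.6, scipy 1.17.1, pandas 2.3.3 and matplotlib 3.10.9 were used. The processing alternatives covered gene, mitochondrial and marker limits, doublets, shared barcodes, free RNA, cell weighting, thinning and scaling.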

Additional observations from a re-analysis of the deposited data

Results flagged for a closer look

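Sgk1 had a log2 ratio of −0.44 (−0.78 to −0.10) in artery cells, against 0.19 in general capillary cells, a difference between classes of −0.63 (−0.96 to −0.30) that was not tested across libraries and rests on 173 and 126 UMIs. Nr3c1 had a log2 ratio of −0.057 in vein cells, against 0.06 in general capillary cells, and this difference of −0.11 (−0.29 to 0.07) was not tested and has an interval that holds 0. Each group is 1 library, so neither opposite direction has a replicate check.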

How the results depend on the processing

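No paired analysis was possible because each group holds 1 library. Under the alternatives run, each of the 9 general capillary ratios kept its direction, except that of Nr3c1, which was −0.0038 with free RNA subtracted. The Zbtb16 ratio ranged from −1.38 to −1.22, and the median over the 9 genes from −1.01 to −0.77. Leaving out barcodes with markers of several classes or of other cell types kept 1407 of 5020 control and 2228 of 4519 metastatic general capillary cells. The median over the 9 genes of the difference in share of positive cells was −8.65 points at 2000 UMIs, −3.69 at 1000, −15.6 at 4000 and −11.9 unthinned. The median r was 0.014 in thinned control cells, 0.18 in the metastatic library and 0.060 in thinned metastatic cells. At 2-fold in place of 1.5-fold, 0.225% of all genes were lower, and of the 9 genes 2 were, Zbtb16 and Fam107a. For the division by Zbtb16, alternatives chosen after seeing the data moved the median of 6 genes in cells carrying it to −0.32 (general capillary, divided by Stt3b) and −0.29 (aerocytes, thinned to 1000), and in general capillary cells without it to −1.24 at 1000 and −2.00 at 4000 UMIs. Depth limits the division, since a cell without a UMI may still express the gene, and artery cells were not divided. The causes of these shifts were not tested.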

Other observations

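Over metastatic general capillary cells, the genes with the most negative r with Zbtb16 included Casc4 (−0.37), Nckap5 (−0.34), Kdr (−0.31), the main VEGF receptor of endothelial cells, and its ligand gene Vegfa (−0.27). These genes were named after their values were seen. Among genes known to respond to dissociation, Hspa1a had a log2 ratio between libraries of −0.15 in cells carrying Zbtb16 and 1.01 in cells without it, and Hspa1b −0.45 and 1.41, with the counts of these near-identical copies uncertain.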
